A study of Mus musculus with 4 samples.

Results

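CD8 T cells in which neither Ccl5 nor Gzmk was detected were described in 4 single-cell RNA libraries of mouse spleen. The cells were chosen by their own transcripts. A barcode entered with 500 or more unique molecular identifiers (UMIs, each a captured transcript), 250 or more genes and no more than 10% of UMIs from mitochondrial genes. It was a T cell if it carried 2 or more of the T cell genes Cd3d, Cd3e, Cd3g, Trbc2, Themis and Bcl11b, no more than 1 of the B cell genes Cd79a, Ebf1, Pax5 and Ms4a1, and under 0.5% of its UMIs from the neutrophil granule genes Camp, Ngp and Ltf. Within the T cells, the population had a UMI of Cd8a or Cd8b1 and none of Cd4, Ccl5 or Gzmk. It came to 881 of 8332 T cells and of 53945 kept cells. The libraries were unequal, with 435 and 124 cells in WT replicates 1 and 2 and 9 and 313 in D3TA replicates 1 and 2.

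Each group had 2 female C57BL/6J mice and 2 libraries of unsorted splenocytes whose red blood cells had been lysed. The D3TA mice were heterozygous for a germline knock-in, made with CRISPR/Cas9 and present in all tissues, that replaces threonine 283 of cyclin D3 by alanine (T283A). They were 12 and 16 months old, and the WT mice were matched to them in age and sex. The line is described as having severe symptoms of a myeloproliferative neoplasm (an overgrowth of myeloid cells) at that age, so genotype and disease cannot be told apart here. The labels do not say which D3TA library came from the younger mouse.

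The replaced codon lies in coding sequence of Ccnd3 (ENSMUSG00000034165), in the last exon (exon 7 of 7 in 4 annotated transcripts and exon 5 of 5 in 1), at chr17:47598744-47598746 of GRCm38 on the plus strand, and encodes residue 283 of 292. The reference sequence around it, from GENCODE transcripts, is shown because it defines the genotype, with the threonine codon in capitals.
Ccnd3, chr17:47598720-47598770, plus strand: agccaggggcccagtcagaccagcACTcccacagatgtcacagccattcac

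Naive CD8 T cells circulate between blood, spleen and lymph nodes before they meet their antigen. They hold the transcription factors Lef1 and Tcf7, the homing receptor Ccr7 and the survival receptor Il7r. Memory CD8 T cells gain the chemokine Ccl5 and cytotoxic genes, and some of those that accumulate with age express the granzyme Gzmk. Cyclin D3 binds Cdk4 and Cdk6 to move cells from G1 into S phase, and phosphorylation at threonine 283 marks it for degradation.

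D3TA replicate 1 stood apart from the other libraries. Values are given for each library, and the differences in shares and the counts of called genes are also given without it. Its 9 cells held 61588 UMIs, while those of WT replicate 1, WT replicate 2 and D3TA replicate 2 held 3181597, 1264703 and 2713798. B cells should lack Ccl5, yet a Ccl5 UMI was present in 77.8% of the B cells of D3TA replicate 1, against 14.4%, 13.3% and 11.8% in WT replicate 1, WT replicate 2 and D3TA replicate 2. The median depth of the B cells was 1422, 8175.5, 13386 and 7649 UMIs in WT replicates 1 and 2 and D3TA replicates 1 and 2. A Gzmk UMI was present in 0.0267%, 0.153%, 4.21% and 0.100% of them, in the same order. How far free RNA in D3TA replicate 1 moved CD8 T cells out of the population was not tested directly, and an alternative that allows for it is given with the shares.

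In all lists of 4 values below, the order is WT replicate 1, WT replicate 2, D3TA replicate 1 and D3TA replicate 2. The libraries held 81416981 to 143811696 UMIs in all. The cells had median depths of 7386, 9911.5, 6922 and 8468 UMIs. In WT replicate 1 the lower quartile was 1483 UMIs and 57 cells had under 1000. Of the 881 cells, 10 had a barcode that another library also held, out of 421 barcodes shared between libraries.

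The edges of the rule were counted. Cells admitted by a single Cd8a or Cd8b1 UMI numbered 131, 12, 3 and 34, and a UMI of either gene was also present in 4.16%, 1.82%, 4.59% and 4.71% of B cells. Cells that met every condition but had 1 Ccl5 UMI numbered 60, 23, 6 and 43, and those kept out by 2 or more B cell genes 512, 29, 1 and 57. The limit on B cell genes therefore bore mostly on WT replicate 1. No doublet caller was run. An alternative dropped cells with a UMI of Cd79a, Ms4a1, Ebf1, Pax5, Ncr1, C1qa or Csf1r. These are genes of B cells, natural killer cells, and monocytes or macrophages. The alternative also dropped cells above 3 times the median depth of the population in their library. Together the dropped cells were 204, 46, 2 and 96.

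The label was checked against its markers. Cd8a (ENSMUSG00000053977, chr6:71373427-71379173), the alpha chain of the coreceptor that binds MHC class I, was at 375, 379.5, 585 and 334 CPM (the gene's UMIs scaled to the same fixed total in each library's summed cells). Cd8b1, the beta chain, was at 729.8, 624, 341 and 492 CPM. The rule required 1 of them, so these levels are no finding. Lef1 (ENSMUSG00000027985, chr3:131110471-131224356) was at 1541, 1593, 259.8 and 1825 CPM and Tcf7 (ENSMUSG00000000782, chr11:52252371-52283014) at 483, 643, 309 and 664 CPM. Both were lowest in D3TA replicate 1 and highest in D3TA replicate 2, so the groups overlapped. In B cells Lef1 was at 28.1, 7.80, 18.1 and 8.84 CPM.

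A UMI of Lef1 or Tcf7 was present in 87.4%, 99.2%, 77.8% and 99% of the cells. The label thus held in WT replicates 1 and 2 and D3TA replicate 2. In D3TA replicate 1 the 16 Lef1 UMIs came from 6 of 9 cells. Il2ra, the interleukin-2 receptor chain of regulatory and activated T cells, was at 3.77, 7.12, 503 and 4.42 CPM, and its 31 UMIs in D3TA replicate 1 came from 5 cells. Foxp3, the factor of regulatory T cells, was at 3.14, 3.16, 64.9 and 2.58 CPM, and the UMIs in D3TA replicate 1 came from 1 cell. The list of helper and regulatory T cell genes summed to 56.3, 79.9, 1137 and 93.2 CPM, highest in D3TA replicate 1, and the list of natural killer genes to 35.2, 14.2, 32.5 and 54.9 CPM, with 1, 5, 7 and 2 of its 8 genes at 0.

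The population took a smaller share of CD8 T cells in both D3TA libraries than in either WT library, and the spread within each group was wide. It made up 69.3% (435 of 628) and 46.6% (124 of 266) of CD8 T cells without Cd4 in WT replicates 1 and 2. In D3TA replicates 1 and 2 it made up 1.16% (9 of 776) and 37.9% (313 of 826). The groups did not overlap, and D3TA replicate 1 lay far below the others. The mean was 57.9% ± 16.0 in WT and 19.5% ± 26.0 in D3TA (SD, n = 2 each), a difference of -38.4 percentage points (exact permutation test over libraries, two-sided, p = 0.333, the smallest that 2 against 2 allows). Without D3TA replicate 1 the difference in the share of CD8 T cells without Cd4 that belonged to the population was -20.0 points, less than the distance between the WT libraries.

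The share was recomputed with Ccl5 and Gzmk allowed up to the 95th percentile of their UMIs in B cells of the same library, an alternative chosen after seeing the data. For Ccl5 that limit was 1, 1, 5 and 1 UMIs. The share then stood at 78.8%, 55.3%, 6.44% and 43.1%. D3TA replicate 1 was higher than before but far below the other libraries. In that library 716 of 776 CD8 T cells had 6 or more Ccl5 UMIs.

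**Figure D1:**
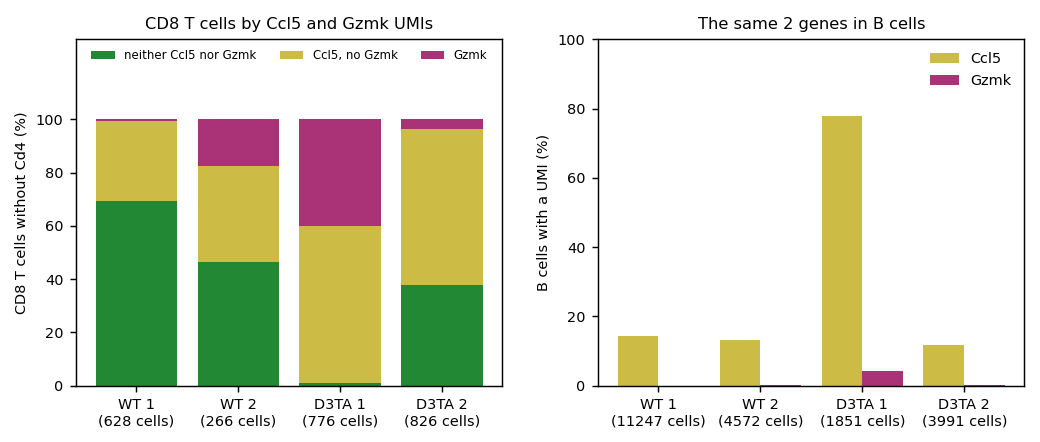
Left, CD8 T cells without Cd4 in each library split by Ccl5 and Gzmk (stacked percentages of cells, cell numbers under each bar). Right, the percentage of B cells with a UMI of Ccl5 or Gzmk. Cells with neither gene (green) make up 69.3% of CD8 T cells in WT replicate 1 and 1.16% in D3TA replicate 1, the library in which 77.8% of B cells had a Ccl5 UMI.

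The other CD8 T cells were not alike in the 2 D3TA libraries. Cells with Gzmk made up 0.637%, 17.7%, 40.1% and 3.51% of CD8 T cells, so that WT replicate 2 lay between the D3TA libraries. Cells with Ccl5 and no Gzmk made up 30.1%, 35.7%, 58.8% and 58.6%, higher in both D3TA libraries. A pair of genes outside the rule was also counted. Ccr7 and Lef1 were both detected, at full depth, in 45.5%, 50.0%, 4.64% and 46.5% of all CD8 T cells. By this pair D3TA replicate 1 was again lowest, but D3TA replicate 2 lay between the WT libraries.

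Against wider denominators the groups overlapped. The population was 23.6%, 10.5%, 0.278% and 15.1% of T cells, a mean of 17.1% ± 9.22 in WT and 7.67% ± 10.5 in D3TA (SD, n = 2 each; exact permutation test, two-sided, p = 0.667). The difference in the share of T cells was -9.39 points, and -2.0 points without D3TA replicate 1. The population was 1.92%, 1.57%, 0.0720% and 2.86% of all kept cells, with a difference of -0.284 points (exact permutation test, two-sided, p = 1). The exact Clopper-Pearson 95% interval in D3TA replicate 1 was 0.0329% to 0.137%, and it covers counting error only. Without that library the difference in the share of all kept cells was 1.11 points, higher in D3TA.

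Levels of the targeted gene overlapped between the groups. Ccnd3 was at 937, 979, 958 and 1074 CPM, with a log2 fold change of -0.10 ± 0.26 (SE; edgeR quasi-likelihood test, adjusted p = 0.985). The fit scales libraries by TMM factors, and without them the log2 fold change of Ccnd3 was 0.10 (adjusted p = 0.945), the sign of the CPM means. It was 0.06 (adjusted p = 0.842) without D3TA replicate 1. UMIs per gene do not tell the knock-in allele from the normal one, so this does not check the genotype. Ccnd2, the other D-type cyclin of these cells, was at 342, 314, 244 and 376 CPM, and Ccnd1 was at 1.57, 3.16, 0 and 0.737 CPM. The partner kinases overlapped as well, with Cdk6 at 96.5, 128, 64.9 and 118 CPM and Cdk4 at 43.1, 49.0, 48.7 and 35.7 CPM.

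The cells carried naive genes at levels far above those of B cells. Because depth differed, each cell was thinned to 1000 UMIs, which left out 57 cells of WT replicate 1 and 1 of D3TA replicate 2. Lef1 was then detected in 65.3%, 66.1%, 44.4% and 77.9% of the cells and in 3.78%, 1.00%, 1.76% and 1.48% of B cells. At full depth the shares of cells were 82.5%, 96.0%, 66.7% and 97.8%. Tcf7 was detected in 37.0%, 37.9%, 11.1% and 46.5% and Ccr7, a receptor for lymph node chemokines, in 13.8%, 23.4%, 0% and 14.4% at 1000 UMIs. D3TA replicate 2 was highest for Lef1 and Tcf7, and D3TA replicate 1 lowest for all 3 genes. With 9 cells, a count of 0 allows a share of up to 33.3%.

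Dapl1 and Itgae set these cells apart from Ccl5 CD8 T cells without Gzmk in level, as a description, since Ccl5 chose both classes. Dapl1 was at 287, 245, 0 and 231 CPM here and at 132, 184, 2.54 and 30.8 CPM in the Ccl5 cells. Itgae, the integrin chain that binds E-cadherin, was at 98.4, 164, 406 and 108 CPM here and at 22.1, 26.2, 31.4 and 15.0 CPM in the Ccl5 cells. Itgae was higher here in all 4 libraries, and Dapl1 in all but D3TA replicate 1, whose 9 cells had no Dapl1 UMI.

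At 1000 UMIs a cell, memory and cytotoxic genes were detected in a minority of the cells, but at full depth Nkg7 was detected in most. At 1000 UMIs Nkg7, a membrane protein of cytotoxic granules, was detected in 18%, 21.8%, 33.3% and 20.8% of the cells, in 39.7%, 52.1%, 62.9% and 44.6% of Ccl5 cells and in 2.40%, 0.669%, 3.02% and 0.945% of B cells. At full depth it was detected in 59.5%, 80.6%, 66.7% and 75.7% of the cells and in 3.89%, 2.89%, 18.3% and 4.71% of B cells. Klrd1, a chain of natural killer receptors, was detected in 13.8%, 12.9%, 11.1% and 13.1% of the cells and in 1.5%, 0.468%, 0.275% and 0.511% of B cells at 1000 UMIs. At full depth its shares were 48.0%, 60.5%, 22.2% and 58.1% of the cells and 2.79%, 2.23%, 2.65% and 2.20% of B cells. Ly6c2, a surface protein of memory CD8 T cells, was detected at 1000 UMIs in 8.73%, 3.23%, 11.1% and 10.9% here and in 33.0%, 36.2%, 65.1% and 56.2% of Ccl5 cells. In B cells Ly6c2 was detected in 3.33%, 1.89%, 9.34% and 6.43%. Its share here was thus close to that background in WT replicate 2 and D3TA replicate 1. Il2rb, a receptor chain for interleukin-2 and interleukin-15, was detected in 5.82%, 4.03%, 11.1% and 8.01%.

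**Figure D2:**
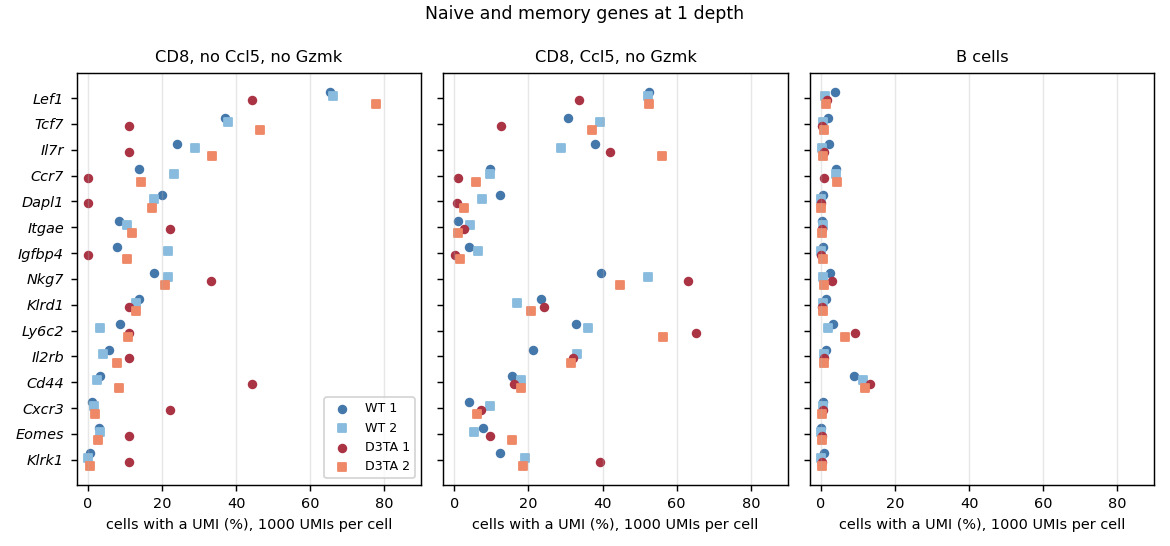
Percentage of cells with a UMI of each naive or memory gene, each cell thinned to 1000 UMIs, in CD8 T cells without Ccl5 or Gzmk, in Ccl5 CD8 T cells and in B cells; each point is 1 library. In the first panel D3TA replicate 1 (9 cells) lies left of the other libraries for Lef1, Tcf7 and Ccr7 and right of them for Cd44 and Cxcr3.

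Memory genes were also counted per cell. Of the 6 memory genes Cd44, Il2rb, Eomes, Cxcr3, Ly6c2 and Klrk1, 2 or more were detected in 3.17%, 1.61%, 22.2% and 3.85% of the cells at 1000 UMIs and in 24.1%, 29.0%, 55.6% and 41.9% at full depth. In Ccl5 CD8 T cells that count gave 29.1%, 38.3%, 57.2% and 46.3% at 1000 UMIs. At 1000 UMIs D3TA replicate 2 was near the WT libraries, and D3TA replicate 1 differed from them on 9 cells.

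Between genotypes, most genes that rose in D3TA had their highest level in a neutrophil class. Counts summed per library were compared across all genes. Of 9551 genes, 27 passed the edgeR quasi-likelihood test at an adjusted p under 0.05 (0.283%), with 23 higher (0.241%) and 4 lower (0.0419%) in D3TA. Of the 23, 19 were highest in a neutrophil class of these spleens, Pclaf, Hist1h2ap, Fos and Jun among them. Here 20 of the 23 reached less than 1 part in 5 of what the class with the most of them showed. The shares of all tested genes within these 2 limits are not given here. The CPM of the groups did not overlap for 40.4% of all genes tested. With 2 libraries a group, p-values measure the spread between these mice only.

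Camp, an antimicrobial peptide of specific granules, was at 2.51 and 2.37 CPM in WT and 487 and 231 CPM in D3TA (log2 fold change 6.61 ± 0.38, SE). Ngp, another specific granule protein, was at 3.46 and 3.16 CPM in WT and 292 and 181 CPM in D3TA (5.69 ± 0.32). For both, every D3TA library was above every WT library. The rule capped Camp, Ngp and Ltf in each cell, so their values are a description, though all 3 are among the 23. S100a8, a calcium-binding protein abundant in neutrophils, was not in the rule and rose from 32.1 and 85.4 CPM to 1445 and 1103 CPM (4.25 ± 0.43, adjusted p = 3.49e-04). Lcn2, Chil3, Wfdc21, Retnlg, S100a9, Hp and Ms4a3 were called in the same direction.

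Free RNA can place such transcripts in other cells, and B cells of the same libraries were read beside them. All 23 genes had the same sign in B cells, and so did all 4 genes called lower. Agreement in sign was thus not limited to the genes that rose. The share of all tested genes with the same sign in both is not given here. In B cells the log2 fold changes of Camp, Ngp and S100a8 were 5.48, 5.37 and 4.77. At 1000 UMIs S100a8 was detected in 5.29%, 2.42%, 77.8% and 59.9% of the CD8 T cells and in 14.3%, 3.61%, 61.8% and 60.3% of B cells. The 8 neutrophil markers summed to 91.5, 218, 3637 and 2434 CPM in the CD8 T cells, with 1, 1, 3 and 0 of the 8 at 0. The part of free RNA in these calls was not tested.

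Most azurophil granule UMIs of D3TA replicate 2 came from 1 cell. Elane, Mpo, Prtn3 and Ctsg, enzymes that neutrophil precursors make, were at 266, 207, 191 and 75.5 CPM in D3TA replicate 2 and at 0.943 CPM or less in WT. Together they had 2008 UMIs in D3TA replicate 2, of which 1793 lay in 1 cell out of 157 cells that had any. In D3TA replicate 1 they had 8 UMIs in 5 of 9 cells. When cells with the B cell, natural killer or macrophage genes above, or of high depth, were left out, 21 of the 27 genes could still be tested. Of these, 18 were still called. That filter used no neutrophil gene, so it does not test the part of neutrophil RNA in these calls.

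The remaining higher genes included Sdk1, an adhesion protein, at 0, 0.791, 97.4 and 20.3 CPM, with 1 cell in D3TA replicate 1 and 3 cells in D3TA replicate 2 holding its UMIs. Igha, the heavy chain of immunoglobulin A, was at 9.74, 6.33, 16.2 and 139 CPM. Pclaf, a partner of the replication clamp, was at 3.14, 3.16, 146 and 32.4 CPM, and the histone gene Hist1h2ap at 11, 2.37, 259.8 and 64.5 CPM. The cell with the most cycling genes held 122 of the 128 UMIs of 11 such genes in D3TA replicate 1.

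**Figure D3:**
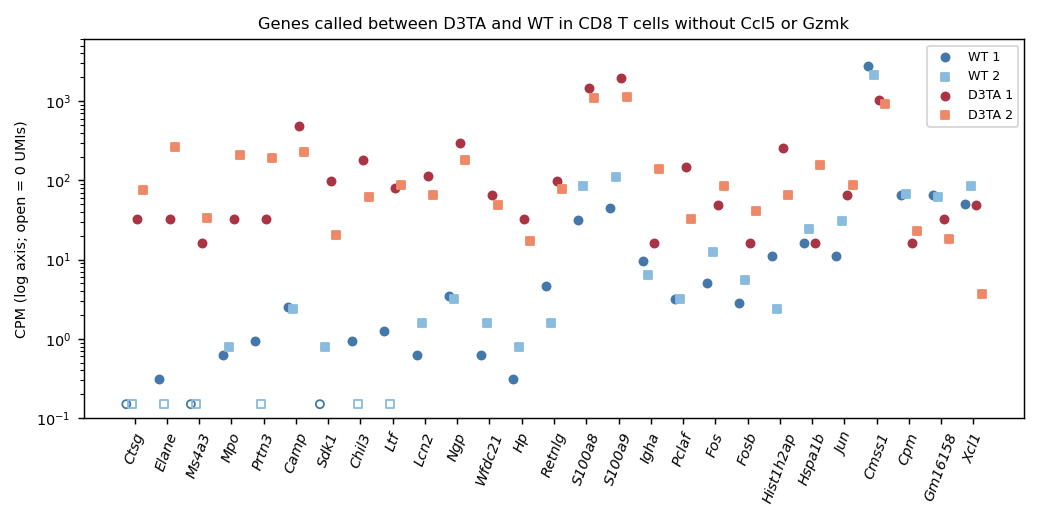
CPM of the 27 genes called between the genotypes in CD8 T cells without Ccl5 or Gzmk, on a log axis, 1 point per library; open symbols mark 0 UMIs. Camp is at 2.51 and 2.37 CPM in WT and 487 and 231 CPM in D3TA, while Cmss1, Cpm, Gm16158 and Xcl1 on the right were called lower in D3TA.

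Immediate early genes, which are switched on soon after a cell is stimulated, were the T cell list with the most calls. Of 22 tested members 3 rose and none fell, and the median log2 fold change was 0.64, beside -0.03 over all genes tested. Fos, a subunit of the AP-1 factor, was at 5.03, 12.7, 48.7 and 85.9 CPM (3.33 ± 0.37, adjusted p = 8.52e-04). Fosb, a relative, was at 2.83, 5.53, 16.2 and 40.5 CPM (3.23 ± 0.45, adjusted p = 0.00706), and Jun, the partner of both, at 11, 30.8, 64.9 and 87.0 CPM (2.11 ± 0.38, adjusted p = 0.0493). The groups did not overlap for these 3 genes. Fos and Jun were highest in mature neutrophils, reached here 0.0252 and 0.210 of the level there, and are among the 19 called genes that a neutrophil class led. Fosb was highest in plasma cells. The part of neutrophil RNA in the calls of Fos and Jun was not tested. D3TA replicate 1 had only 3, 1 and 4 UMIs of Fos, Fosb and Jun. Without D3TA replicate 2 their adjusted p was 0.501, 0.687 and 0.647, and DESeq2 called 0 genes of the list with all libraries.

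Fos was also higher in other cells of the D3TA libraries. Its log2 fold change was 2.47 in B cells, 2.60 in conventional CD4 T cells and 3.22 in Ccl5 CD8 T cells. Of 10 tested heat shock genes 1 was called, Hspa1b, an inducible chaperone. It was at 16.0, 24.5, 16.2 and 157 CPM (2.74 ± 0.38, adjusted p = 0.00687). D3TA replicate 2 alone was high, and without it the log2 fold change was -0.57 (adjusted p = 0.887).

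Xcl1, Gm16158, Cpm and Cmss1 were the 4 genes that fell. Cpm, a membrane carboxypeptidase, was at 64.4 and 68.0 CPM in WT and 16.2 and 23.2 CPM in D3TA (-1.64 ± 0.26, adjusted p = 0.0214). Cmss1 was at 2797 and 2121 CPM in WT and 1039 and 923 CPM in D3TA (-1.55 ± 0.26, adjusted p = 0.0329), and its log2 fold change was -1.43, -1.14 and -1.24 in B cells, conventional CD4 T cells and Ccl5 CD8 T cells. For Cpm and Cmss1 the groups did not overlap. Gm16158, an unnamed gene model, was at 65.4, 61.7, 32.5 and 18.4 CPM (-1.87 ± 0.27, adjusted p = 0.00928).

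Xcl1, a chemokine of activated CD8 T and natural killer cells, was at 50.0, 83.8, 48.7 and 3.68 CPM (-3.82 ± 0.54, adjusted p = 0.00793). Few cells carried it. The 3 cells with the most Xcl1 held 96.2% and 99.1% of its UMIs in WT replicates 1 and 2, and the 3 UMIs of D3TA replicate 1 lay in 1 cell. Among genes that did not pass, Cpq, a secreted carboxypeptidase, was at 105, 100.4, 48.7 and 47.2 CPM (adjusted p = 0.0585) and Oprm1, the mu opioid receptor, at 123, 108, 97.4 and 55.3 CPM (adjusted p = 0.140).

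Naive, homing and quiescence genes gave no call among 25 tested. Their median log2 fold change was -0.25, with 18 below 0, 1 gene at an unadjusted p under 0.05 and none called by DESeq2. Satb1, a chromatin organiser of T cells, was at 968, 1207, 179 and 1479 CPM, and Bach2, a repressor that restrains effector genes, at 1119.6, 1424, 519.6 and 1716 CPM. D3TA replicate 1 was lowest and D3TA replicate 2 highest for both. Without D3TA replicate 1 their log2 fold changes were 0.34 and 0.33 (adjusted p = 0.0306 and 0.0271). Bcl2, which protects naive cells from death, was at 833, 1103, 471 and 778 CPM, with -0.42 (adjusted p = 0.0158) in that fit.

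Among 23 tested memory and effector genes 1 fell, Xcl1, and none rose, with a median of 0.01. DESeq2 called 1 gene of the list, S100a6, a calcium-binding protein (adjusted p = 0.00243, against 0.0809 by edgeR), at 17.9, 22.9, 389.7 and 80.7 CPM. With the naive genes, 12 lists of T cell functions had no call among 214 tested genes by edgeR or DESeq2, and 16 of these genes had an unadjusted p under 0.05 (7.48%). The same held for 654 of all 9551 genes (6.85%). Of the 16, 8 were among the 20 tested cell cycle genes, so the pooled share does not describe each list. The 11 lists other than the naive one hold checkpoint receptors, T cell receptor signalling, cyclin D with its kinases and Rb, and cell cycle. They also hold interferon-induced genes, antigen presentation, cytokine receptors, TGF-beta, migration, apoptosis and glycolysis. The cyclin D list had 17 tested genes and a median of 0.07.

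For the lists without a call, 1 or 2 of the genes with the highest mean level are given. Among 25 tested T cell receptor signalling genes (median log2 fold change 0.12), Skap1, an adaptor of integrin activation, was at 2168, 2249, 2988 and 2839 CPM and Ptprc, the phosphatase CD45, at 1963, 2039, 2582 and 2466 CPM. Among 23 cytokine receptor and JAK-STAT genes (median 0.09), the kinase Jak1 was at 724, 761, 422 and 897 CPM and the factor Stat4 at 344, 361, 682 and 438 CPM. No member of either list passed the test.

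Among 30 interferon-induced genes (median -0.22), Shisa5 was at 686, 704, 519.6 and 726 CPM. Among 15 genes of antigen presentation (median -0.16, and 0.03 without scaling factors between libraries), B2m, the light chain of MHC class I, was at 1523, 1632, 1348 and 1621 CPM and H2-K1, a heavy chain, at 1346, 1392, 1591 and 1290.4 CPM. No member of either list passed. Tox, a factor of exhausted T cells, led the 11 tested checkpoint genes (median 0.56) with 555, 688, 2598 and 675 CPM.

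Tgfbr2, a receptor of TGF-beta, was at 321, 357, 195 and 418 CPM, in a list of 10 genes with a median of 0.17. Dock2, which drives migration, was at 1709.5, 1781, 1543 and 2427 CPM, in a list of 14 genes with a median of -0.19. Mcl1, an inhibitor of apoptosis, was at 158, 153, 292 and 154 CPM, in a list of 11 genes with a median of 0.18. None of these genes passed the test. Gapdh, a glycolytic enzyme, was at 247, 228, 406 and 193 CPM, in a list of 13 genes with a median of -0.03.

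Cell cycle genes had the highest median of the 12, 1.67, with 16 of 20 above 0. An unadjusted p under 0.05 in the edgeR test was reached by 8 of the 20. Without TMM factors 3 of them were called higher. Top2a, the topoisomerase of dividing cells, was at 16.3, 15.8, 585 and 66.0 CPM, and 97.2% of its UMIs in D3TA replicate 1 lay in 3 cells. Cells with 3 or more of 11 cycling genes at full depth numbered 5, 1, 1 and 7 (1.15%, 0.806%, 11.1% and 2.24%). Such cells were thus few in WT replicates 1 and 2 and D3TA replicate 2. In D3TA replicate 1 the share rests on 1 of 9 cells.

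Markers of other cells differed between the libraries. Of 10 B cell genes outside the rule none was called, all 10 were below 0 with a median of -1.20, and they summed to 6572, 1414, 1867 and 1603 CPM. In WT replicate 1, 15508 of 18872 UMIs of Igkc and Ighm lay in 1 cell. The erythroid genes summed to 2094, 94.1, 195 and 883 CPM, and 6385 of 6534 globin UMIs in WT replicate 1 lay in 1 cell. Platelet genes were near 0, with 4, 4, 5 and 4 of 5 at 0. Monocyte and macrophage genes summed to 133, 87.0, 259.8 and 147 CPM. Plasma cell genes summed to 324, 92.5, 146 and 132 CPM, dendritic cell genes to 101, 94.1, 195 and 63.0 CPM and genes of gamma-delta and natural killer T cells to 22, 9.49, 48.7 and 9.95 CPM. In these lists and those of helper and natural killer cells, 9 in all with neutrophils apart, no gene was called among 29 tested. An unadjusted p under 0.05 was reached by 10 of the 29 (34.5%), against 6.85% of all genes tested. The cells left out in the alternative above were chosen by B cell, natural killer and macrophage genes and by depth. Without them, 33 genes were called between the genotypes. The part of the other lineages in the calls was not tested.

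Leaving out D3TA replicate 1 raised the number of calls more than any other setting tried. Then 632 of 10645 genes passed (5.94%), 274 higher (2.57%) and 358 lower (3.36%), and these included all 27 genes called with 4 libraries. That fit assumes that the lone D3TA library varies like the WT libraries. Without D3TA replicate 2, 209 genes passed. Of 23 tested immediate early genes, 12 rose in the fit without D3TA replicate 1, and 7 of 22 cell cycle genes did. Cd69, an early activation receptor, was at 46.2, 87.8, 179 and 127 CPM (log2 fold change 0.91, adjusted p = 4.13e-05 without D3TA replicate 1), and Tnfaip3, an inhibitor of NF-kappaB, at 17.9, 22.1, 244 and 54.5 CPM (1.39, adjusted p = 1.18e-06).

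Ribosomal protein genes, chosen by their symbols after values had been seen, took a smaller part of the UMIs in both D3TA libraries. They made up 25.9%, 25.4%, 16.0% and 19.5% of UMIs, and the groups did not overlap. With all libraries the median log2 fold change over 81 tested genes was -0.74 and none passed the edgeR test, while 58 had an unadjusted p under 0.05 (71.6%, against 6.85% of all genes tested). Rps18, of the small subunit, was at 4292, 4256, 2371 and 2139 CPM (-1.15 ± 0.23, adjusted p = 0.0913). Without scaling factors between libraries, which moved the median of all genes by 0.13, the list's median was -0.53 and 7 genes were called lower.

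Without D3TA replicate 1, 62 ribosomal protein genes fell and 1 rose, with a median of -0.56. The same median was -0.59 in Ccl5 CD8 T cells, -0.43 in conventional CD4 T cells and -0.45 in B cells. In B cells the genes made up 19.2%, 17.6%, 18.3% and 14.1% of UMIs, so that D3TA replicate 1 lay between the WT libraries there. No ribosomal protein gene passed the tests of a difference between the population and either other T cell class, described next. With all libraries, 80 of 81 genes lay below 0 against conventional CD4 T cells (median -0.46). Against Ccl5 CD8 T cells 81 of 81 did (median -0.27). Without D3TA replicate 1 these medians were -0.06 and 0.05.

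**Figure D4:**
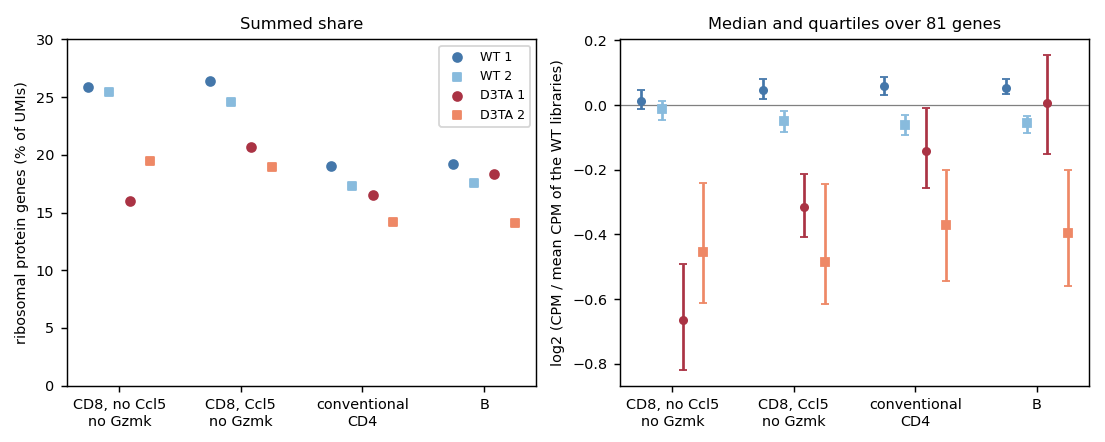
Left, ribosomal protein genes as a percentage of UMIs in 4 cell classes, 1 point per library. Right, the median (point) and quartiles (bars) over 81 genes of the log2 ratio of CPM to the mean of the WT libraries. In CD8 T cells without Ccl5 or Gzmk the WT libraries are at 25.9% and 25.4% and the D3TA libraries at 16.0% and 19.5%.

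Whether the genotype difference was the same in Ccl5 CD8 T cells without Gzmk was tested as an interaction, with the library as a block. Of 10542 genes, 50 passed the edgeR test (0.474%), with 33 more positive (0.313%) and 17 more negative (0.161%) in the cells without Ccl5. Of the naive list, 3 of 25 tested genes were among the 33 and 0 among the 17. Id3, an inhibitor of E-protein factors, was at 42.7, 43.5, 64.9 and 34.6 CPM in the cells without Ccl5 and at 43.7, 39.8, 4.38 and 6.58 CPM in those with it (difference of log2 fold changes 2.56 ± 0.47, adjusted p = 2.74e-05). The libraries overlapped in the first class, and both D3TA libraries lay below both WT libraries in the second. The Ccl5 cells numbered 189, 95, 456 and 484, of which 60, 23, 6 and 43 had a single Ccl5 UMI. Cells with little Ccl5 thus made up more of that class in WT. Their part in the differences between the classes was not tested.

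Dapl1, whose levels are given above, differed by 2.09 ± 0.32 (adjusted p = 6.91e-08). Actn1, an actin crosslinker, was at 244, 268, 129.9 and 350.4 CPM here and 155, 163, 25.4 and 67.0 CPM in the Ccl5 cells (1.67 ± 0.30). Mtss1, a membrane-bending protein, was at 64.7, 94.9, 48.7 and 105 CPM here and 32.1, 40.7, 4.84 and 11.9 CPM in the Ccl5 cells (2.04 ± 0.39). For all 3, both D3TA libraries lay below both WT libraries in the Ccl5 cells. Without D3TA replicate 1 the adjusted p of Dapl1, Id3, Actn1 and Mtss1 lay between 5.14e-08 and 1.46e-04. Without WT replicate 1 it lay between 0.360 and 1.00, and without WT replicate 2 between 0.446 and 1.00. Without D3TA replicate 2 it was 0.0288 for Id3 and 0.283 to 0.735 for the other 3 genes.

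**Figure D5:**
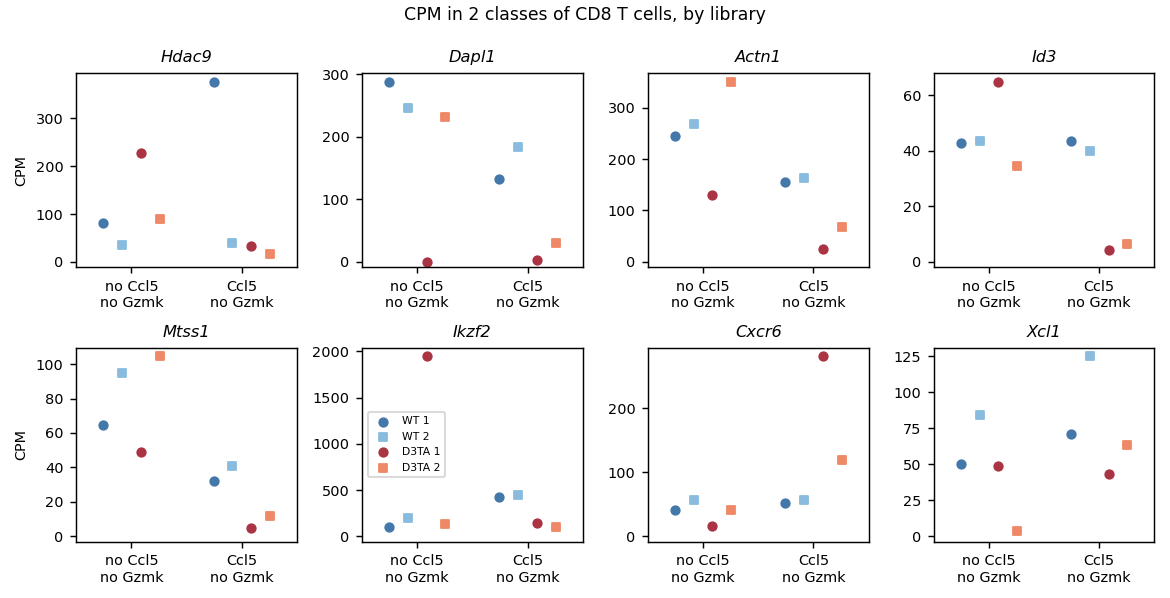
CPM of 8 genes in CD8 T cells without Ccl5 or Gzmk (left in each panel) and in Ccl5 CD8 T cells without Gzmk (right), 1 point per library. Among the Ccl5 cells Dapl1, Actn1, Id3 and Mtss1 are lower in both D3TA libraries than in both WT libraries; among the cells without Ccl5, D3TA replicate 2 is above both WT libraries for Actn1 and Mtss1.

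The changes of Ikzf2 and Hdac9 with genotype were also more positive in the cells without Ccl5. Ikzf2, the factor Helios, was at 98.4, 198, 1948 and 129.7 CPM here and 423, 443, 141 and 101 CPM in the Ccl5 cells (3.47 ± 0.31), and its 120 UMIs in D3TA replicate 1 lay in 4 of 9 cells. In the Ccl5 cells both D3TA libraries lay below both WT libraries for Ikzf2, and without D3TA replicate 1 its adjusted p was 2.44e-07. Hdac9, a histone deacetylase, was at 81.4, 36.4, 227 and 88.8 CPM here and 376, 38.9, 34.4 and 17.3 CPM in the Ccl5 cells (4.02 ± 0.33), high in WT replicate 1 of the latter, and without that library its adjusted p was 0.506. Cxcr6, a chemokine receptor of tissue memory cells, was at 41.8, 56.1, 16.2 and 40.9 CPM here and 52.6, 57.0, 282 and 119 CPM in the Ccl5 cells (-1.53 ± 0.33), where both D3TA libraries were higher. Without D3TA replicate 1, 70 genes passed (0.644%), with 48 more positive (0.442%) and 22 more negative (0.202%). Without WT replicate 1, 1 gene passed.

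Against conventional CD4 T cells (Cd4 and no Cd8, Ccl5, Gzmk or Foxp3), 21 of 10807 genes passed the interaction test (0.194%), 18 more positive (0.167%) and 3 more negative (0.0278%) in the CD8 T cells. Globin genes were among them, with Hbb-bs at 3.24 ± 0.51 and Hba-a1 at 3.49 ± 0.45, and single cells held most of their UMIs in WT replicate 1 (above) and in D3TA replicate 2 (1924 of 2281). Ly6c2 was at 119.8, 162, 48.7 and 173 CPM in the CD8 T cells and 4.08, 10.1, 45.7 and 23.8 CPM in the CD4 T cells (-1.83 ± 0.41, adjusted p = 0.00744). Without D3TA replicate 1, 36 genes passed (0.307%), 29 more positive (0.247%) and 7 more negative (0.0596%). Without WT replicate 2, 1 gene passed.

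T cell receptor beta variable (Trbv) segments were read as a coarse measure of clonal makeup. A single segment was detected in 57, 22, 4 and 40 cells, since most cells had no Trbv UMI. In WT replicate 1, 16 segments were seen, led by Trbv2 in 10 of 57 cells (17.5%), Trbv12-1 in 6 and Trbv1 in 5. In WT replicate 2, Trbv1, Trbv2 and Trbv19 led with 3 of 22 cells each. In D3TA replicate 2, 17 segments were seen, led by Trbv1 and Trbv13-1 with 4 of 40 cells each and Trbv12-2 with 3. The 4 cells of D3TA replicate 1 had 4 different segments, Trbv15, Trbv19 and Trbv23 among them.

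No segment filled the population in any library. The share of the most frequent segment differed by 1.91 points between the groups (exact permutation test, two-sided, p = 1), with n from 4 to 57 cells a library. The difference was -5.59 points, lower in D3TA, without D3TA replicate 1, where each segment was in 1 of 4 cells. Among Ccl5 CD8 T cells of D3TA replicate 2, the most frequent segment, Trbv17, was in 21 of 69 cells (30.4%). In the cells without Ccl5 or Gzmk of that library the most frequent were in 10.0%. When cells with several segments were given the one with most UMIs, Trbv12-2 led there instead, in 8 of 46 cells (17.4%), and Trbv2 led in WT replicate 2, in 5 of 26 cells (19.2%). The 2 classes were not tested against each other for this measure.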

How the data were processed

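Single-cell RNA was measured in splenocytes of 2 WT and 2 D3TA mice on the 10x Genomics platform. The deposited matrices hold UMI counts per gene and barcode, written by Cell Ranger (version 7.0.1, as the deposited headers record) on mm10 (per the submitters' processing notes), with 64410 barcodes and 32285 genes. Raw counts were summed per library over the cells of the rule and compared with edgeR 4.0.16 (quasi-likelihood test, filterByExpr, TMM, Benjamini-Hochberg over all genes tested, 2-sided), with DESeq2 1.42.0 as an alternative, under R 4.3.3. Differences between cell classes were tested as an interaction with the library as a block. Shares were compared over libraries by exact permutation, with exact Clopper-Pearson 95% intervals for counting error. Cells were thinned to 1000 UMIs (800 as an alternative) with Python 3.11.15 and numpy 2.4.6. The threshold was an adjusted p of 0.05.

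The T cells, the other classes and the gene lists were chosen with earlier results of these data known. Genes were named by rule: the genes that define the cells and their markers, called genes whose groups do not overlap with a mean of 20 CPM or more (up to 15 a direction), called list members or else the 2 of highest mean, D-type cyclins with Cdk4 and Cdk6, up to 5 genes a direction of each interaction, and leading Trbv segments. Further genes were named after their values were seen (Il2ra, Foxp3, Satb1, Bach2, Bcl2, S100a6, Cd69, Tnfaip3, Hist1h2ap, Igha and those of the naive pair and the memory count). So were Itgae, Nkg7, Klrd1, Hp, Ms4a3, Gm16158 and Rps18. A few genes are not reported here. Symbols that occur more than once (78) were kept apart by gene identifier. Reads of near-identical copies, such as Hspa1a and Hspa1b, can be split between them.

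Counts were simulated with the same dispersion (spread beyond counting error) for every gene, and changed genes were drawn only from those above the median level. Of 200 genes changed 2-fold, 107 were recovered among 9277 genes, with 4 false calls. Of 200 changed 4-fold, 199 were recovered among 9299, with 9 false calls. For the interaction the recovered genes were 21 of 200 (9514 genes, 0 false calls) and 189 of 200 (9527 genes, 8 false calls). Recovery of genes of low level, or with most UMIs in single cells, was not measured.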

Additional observations from a re-analysis of the deposited data

Results flagged for a closer look

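These genes changed differently with genotype in CD8 T cells without Ccl5 or Gzmk than in another T cell class of the same libraries, by an edgeR interaction test. Values are differences of log2 fold changes, positive where the change was more positive in the cells without Ccl5 or Gzmk. Against conventional CD4 T cells 21 genes passed. Those named by the rule were Hbb-bt (3.76), Hba-a1 (3.49) and Hbb-bs (3.24), which are globin genes, Hist1h1b (3.26) and Top2a (2.05), which are genes of dividing cells, and Ly6c2 (-1.83) and H2-Eb1 (-1.81).

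Against Ccl5 CD8 T cells 50 genes passed, and those given here are among the ones named by the rule. The more positive ones were Dscam (4.24), Hdac9 (4.02), Ikzf2 (3.47), Retnlg (2.96), Id3 (2.56), Dapl1 (2.09), Mtss1 (2.04), Actn1 (1.67) and St6galnac3 (1.47). In the cells without Ccl5, Dscam was at 4.40, 2.37, 373 and 1.84 CPM, high in D3TA replicate 1 alone. The more negative ones were Hba-a1 (-4.00), Hba-a2 (-3.96), Hbb-bt (-3.91), Hbb-bs (-3.54), Xcl1 (-3.06), Egr1 (-1.93), Cxcr6 (-1.53) and Btbd11 (-1.26). Globin genes thus took opposite signs in the 2 comparisons, and their UMIs in the CD8 T cells without Ccl5 or Gzmk lay mostly in 1 cell each in WT replicate 1 and D3TA replicate 2.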

How the results depend on the processing

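The number of genes called between genotypes was 27 with all libraries. It was 53 without TMM factors (36 higher and 17 lower, against 23 and 4), 151 without a filter on low counts, 88 with 2 or more Cd8 UMIs, 15 on thinned cells, and 75 on cells with Lef1 or Tcf7, chosen after seeing the data. It ranged from 30 to 632 when 1 library was left out, and 17, 19, 27 and 6 of the 27 were called without WT replicate 1, WT replicate 2, D3TA replicate 1 and D3TA replicate 2. DESeq2 called 21, of which 18 were among the 27. The labels do not say whether the replicate numbers pair the mice, so the main fit had no block for them. Deviations of same-numbered libraries had a correlation of -0.0198. With 2 libraries a group and 9 cells in D3TA replicate 1, this value cannot decide whether they are paired. A replicate block gave 56 calls.

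The interaction against conventional CD4 T cells had 39 calls without TMM factors and 1 to 314 with 1 library left out, and that against Ccl5 CD8 T cells 1 to 381. The share of all kept cells differed by -1.68 to 1.11 points with 1 library left out, turning positive without D3TA replicate 1. Hspa1b was at 2.95 without D3TA replicate 1 and turned to -0.57 without D3TA replicate 2. For the share of these cells with a UMI of 1 gene at 1000 UMIs, D3TA minus WT, the value moved beyond the spread of the libraries for Il2rb at full depth (9.51 points, against 4.64), Klrd1 at full depth (-14.1) and at 800 UMIs (-5.59, against -1.20), and at 800 UMIs Ly6c2 (-2.70, against 5.03) and Nkg7 (-3.15, against 7.20). Ly6c2 and Nkg7 thus turned negative. The cause of these changes was not tested. With 9 cells in D3TA replicate 1, its shares move in steps of 1 cell, and changes in genes of few UMIs were not detectable there.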
